A study of Homo sapiens with 54 samples.

Results

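The 49 genes described here encode proteins that bring cells into and through mitosis: the cyclins, CDK1 and the CDC25 phosphatases that start it, the mitotic kinases, the spindle checkpoint, regulators of the anaphase-promoting complex (APC/C), kinesins, kinetochore and centromere proteins, the chromosomal passenger complex, spindle assembly factors, cytokinesis proteins, and 4 further genes of transcription, chromosome structure and proliferation. They were taken by symbol from a list drawn up with earlier results of these data known, by a rule that sets no threshold on a measured value, and make up 49 of the 27470 genes in the table. Most genes of this kind are transcribed late in the cell cycle. Their messages build up in G2, their proteins act in mitosis, and many of the proteins are destroyed as cells leave it. DNA damage holds cells in front of mitosis through checkpoint kinases that keep CDK1 inactive, and the levels of these messages are therefore often read as a measure of how cells pass through G2 and M. The phase of the cells itself was not measured in these libraries.

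The study used a pair of triple-negative breast cancer lines, MDA-MB-468, which carries wild-type BRCA1, and SUM1315, which carries mutant BRCA1. Parental MDA-MB-468 cells were left untreated, given olaparib, an inhibitor of the DNA repair enzyme PARP, at 3 µM, cisplatin (CDDP), which crosslinks DNA, at 1 or 2.5 µM, or both drugs, overnight. Parental SUM1315 cells had the same scheme with 8 µM olaparib and 2 or 4 µM CDDP. The sources differ on doses: the series description has 2 µM where the sample titles and methods have 2.5 µM CDDP for MDA-MB-468, and the treatment label writes parental doses in mM where the methods have µM. Titles and methods are followed here. Olaparib resistant (OlaR) derivatives of each line, made by stepwise exposure and kept in 15 µM (MDA-MB-468) or 25 µM (SUM1315) olaparib without a break, were sampled as such or after the same CDDP doses. Each of the 18 conditions had 3 libraries. OlaR cells and olaparib-treated parental cells thus differ in olaparib dose and length of exposure as well as in resistance, each OlaR line stands alone for its parent, and all CDDP-treated OlaR cells were in olaparib too. Doses differed between the lines, so values of both lines are set side by side as the response of each line to its own doses.

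RNA was measured by sequencing of 3′ ends (QuantSeq), and the table holds read counts that the authors adjusted to a common library size, called adjusted read counts below. Parental libraries held 4977284 to 9268162 reads and OlaR libraries 2070301 to 4676284. EPCAM and CDH1, which mark epithelial cells, lay at 2631 to 3793 and 653.9 to 1045 in the MDA-MB-468 libraries and at no more than 4.61 and 3.90 in SUM1315, whereas VIM, a mesenchymal filament gene, lay at 7929 to 13250 in SUM1315 and 7.99 to 53.8 in MDA-MB-468. Each line was tested in a limma fit of its 27 libraries on log2(adjusted read count + 1), over 13012 genes in MDA-MB-468 and 13133 in SUM1315. All 49 genes passed the filter on low values in both lines. The labels do not say whether the 3 libraries of a condition came from separate cultures, so the tests measure the spread between these libraries, which may be technical. A gene is called higher or lower where its Benjamini-Hochberg adjusted p was at or under 0.05, with no minimum fold. In bulk samples of this kind, fewer cells in a phase and less RNA per cell cannot be told apart.

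The 49 genes took 0.571% ± 0.0160 (SD, n = 3) of all reads in untreated SUM1315 cells, the lowest share among the 9 conditions of that line. It rose to 0.971% ± 0.0273 with olaparib, 1.05% ± 0.0107 with 2 µM CDDP and 0.911% ± 0.0167 with 4 µM CDDP. Olaparib with 2 or 4 µM CDDP gave 1.07% ± 0.0255 and 0.922% ± 0.0302. OlaR SUM1315 cells lay between, at 0.757% ± 0.0110 without CDDP, 0.680% ± 0.0258 with 2 µM and 0.731% ± 0.0119 with 4 µM. The untreated SUM1315 libraries stood apart from the rest of that line in these genes: 32 of the 49 had their lowest mean there. In MDA-MB-468 the order was another one. Untreated cells gave 0.940% ± 0.0115, olaparib the highest share at 1.22% ± 0.0380, and 1 and 2.5 µM CDDP 0.930% ± 0.0188 and 0.826% ± 0.0110. Adding CDDP to olaparib gave 0.991% ± 0.0302 at 1 µM and 0.870% ± 0.0130 at 2.5 µM, and OlaR cells passed from 0.978% ± 0.0115 to 0.868% ± 0.0141 and 0.830% ± 0.00474 with rising CDDP dose. In that line 37 of the 49 genes had their highest mean with olaparib alone. These counts of lowest and highest means were not taken over all genes, so they describe the members only.

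**Figure D1:**
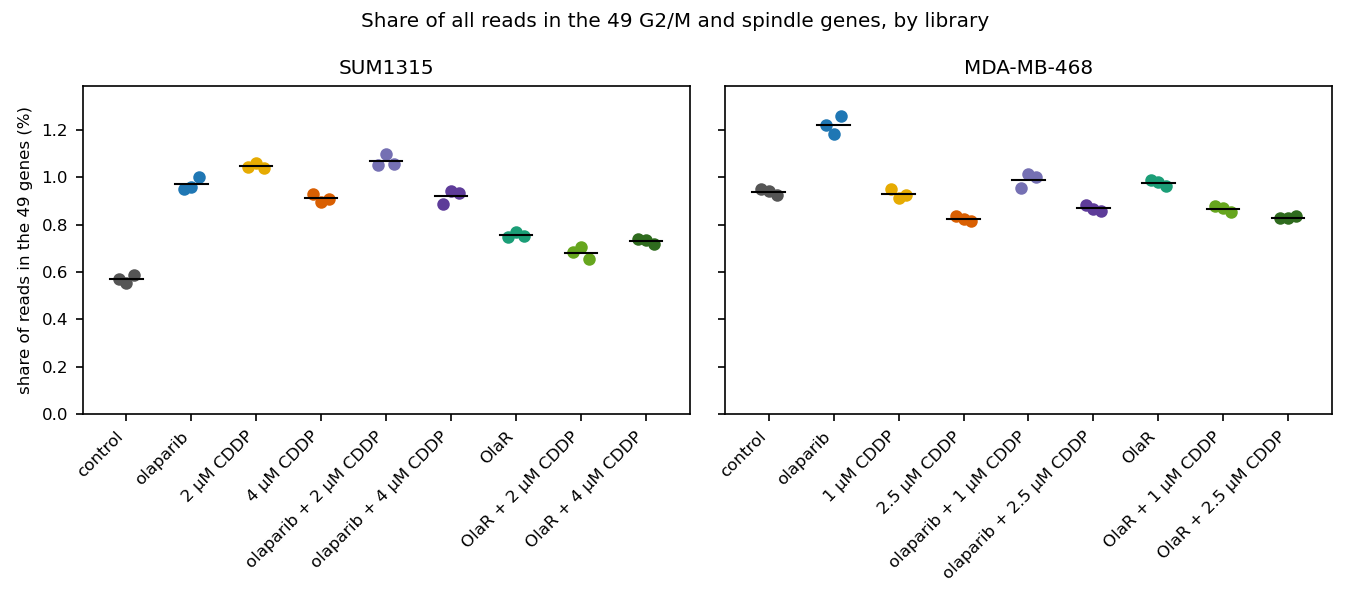
Share of all reads that fell in the 49 G2/M and spindle genes (y axis, percent) in each of the 54 libraries, by condition (x axis), for SUM1315 (left) and MDA-MB-468 (right). Points are libraries and lines are means of 3. Untreated SUM1315 libraries lie lowest of that line, and olaparib-treated MDA-MB-468 libraries lie highest of theirs.

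Upstream sequence is shown for 6 members that moved in different ways, because the genes of this group are known to share promoter elements. The CCAAT box is bound by the factor NF-Y, and the cell cycle genes homology region (CHR), with the letters TTTGAA, is bound by complexes that hold the MuvB core, which repress in resting cells and activate in G2. RefSeq promoter windows of GRCh38.p14 (250 bases before to 50 bases after each transcript start) matched 41 of the 49 genes, with 51 windows. AURKA, BIRC5, BUB3, FOXM1, RACGAP1, TPX2, TTK and UBE2C had none. Read on both strands, TTTGAA stood in 32 of the 51 windows (62.7%) against 5324 of all 35116 windows (15.2%), and CCAAT in 39 (76.5%) against 12155 (34.6%). Both stood in 26 windows (51%) against 2073 (5.9%). TTTGAA within the 50 bases before the start was found in 17 windows (33.3%) against 899 (2.56%). A match of one motif can share no more than an edge base with a match of the other. The sequences below run from 130 bases before to 20 bases within the transcript, 5′ to 3′ on the strand of the gene, with each TTTGAA or CCAAT, or its complement TTCAAA or ATTGG, in capitals. KIF20A lies at chr5:138178982-138179131 and PLK1 at chr16:23678759-23678908, both on the plus strand. CCNB1 lies at chr5:69167020-69167169 and CDC20 at chr1:43358851-43359000, also on the plus strand. MAD2L1 lies at chr4:120066829-120066978 and CENPE at chr4:103198324-103198473, both on the minus strand.
KIF20A: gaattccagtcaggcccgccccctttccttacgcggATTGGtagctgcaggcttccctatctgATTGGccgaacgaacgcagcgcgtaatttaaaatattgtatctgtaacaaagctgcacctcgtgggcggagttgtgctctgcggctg
PLK1: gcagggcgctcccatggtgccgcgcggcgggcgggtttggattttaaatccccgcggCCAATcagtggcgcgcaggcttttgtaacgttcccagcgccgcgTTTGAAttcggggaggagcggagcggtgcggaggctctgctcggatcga
CCNB1: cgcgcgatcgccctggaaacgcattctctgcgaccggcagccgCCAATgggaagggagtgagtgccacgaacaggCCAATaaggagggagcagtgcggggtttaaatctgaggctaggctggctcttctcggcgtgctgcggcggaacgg
CDC20: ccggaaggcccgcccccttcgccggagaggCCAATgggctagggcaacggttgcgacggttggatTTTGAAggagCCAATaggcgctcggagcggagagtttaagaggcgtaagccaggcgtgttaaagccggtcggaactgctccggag
MAD2L1: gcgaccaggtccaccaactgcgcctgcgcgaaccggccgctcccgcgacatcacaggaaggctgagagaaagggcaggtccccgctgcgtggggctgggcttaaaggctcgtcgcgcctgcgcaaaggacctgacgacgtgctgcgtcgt
CENPE: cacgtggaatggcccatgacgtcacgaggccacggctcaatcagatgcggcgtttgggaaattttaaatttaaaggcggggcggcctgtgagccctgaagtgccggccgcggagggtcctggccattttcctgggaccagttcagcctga
KIF20A, PLK1, CCNB1 and CDC20, which were lower with CDDP on top of olaparib in both lines, each hold 1 or 2 CCAAT boxes here, and PLK1 and CDC20 hold TTTGAA as well. MAD2L1 rose with the higher CDDP dose alone in both lines and passed in neither line on top of olaparib. It holds neither motif in the bases shown, although its whole window has TTTGAA at position 25 and CCAAT at position -229, counted from the transcript start. CENPE, which fell in MDA-MB-468, holds neither in its whole window. The 6 genes were chosen by their responses and do not stand for the group. All 41 genes with a window were also read for the higher CDDP dose on top of olaparib. In MDA-MB-468 the median log2 fold change was -0.365 for the 29 genes with TTTGAA and -0.733 without. It was -0.534 for the 34 genes with CCAAT and -0.24 without. In SUM1315 the medians were 0.00568 and -0.29 for TTTGAA, and -0.218 and 0.121 for CCAAT. A match is a description of letters and no measure of binding.

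Olaparib alone was compared with no treatment first. In SUM1315, 46 of the 49 genes were higher with olaparib and 0 were lower, with a median log2 fold change of 0.98. Over all genes tested, 18.9% were higher and 17.1% lower. Of the members, 24 rose by at least 2-fold, as did 4.99% of all genes. The same count of 0 lower genes came from edgeR and from DESeq2, and 0 were lower at an unadjusted p under 0.05. In MDA-MB-468, 38 were higher and 0 lower, with a median of 0.45, against 12.4% higher and 9.11% lower of all genes tested, and 0 members against 0.653% of all genes rose by at least 2-fold. edgeR and DESeq2 also called 0 lower there, and 0 were lower at an unadjusted p under 0.05. Each of the 10 role groups had members that rose in both lines: all 9 kinesins, 5 kinetochore and centromere genes and 6 spindle assembly genes in SUM1315, and 6, 1 and 5 of them in MDA-MB-468.

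KIF20A, a kinesin that carries the chromosomal passenger complex to the central spindle, had the largest rise in SUM1315. Its adjusted read counts were 120.3, 165 and 94.4 in the 3 untreated libraries and 486, 511 and 458 with olaparib (log2 fold change 1.96 ± 0.21 SE, adjusted p = 3.99e-09). The lowest olaparib library thus lay well above the highest untreated one. CENPA, the histone H3 variant of centromeres, was next, with 56.8, 65.1 and 34.3 untreated and 199, 182 and 153 with olaparib (log2 fold change 1.80 ± 0.19 SE, adjusted p = 5.10e-09), again without overlap. In MDA-MB-468 the largest rises were those of KIF2C, a kinesin that takes microtubules apart at centromeres, and MAD2L1, which encodes the checkpoint protein MAD2. KIF2C went from 809.9, 751 and 716 to 1369, 1404 and 1318 (log2 fold change 0.85 ± 0.06 SE, adjusted p = 4.77e-15). MAD2L1 went from 224, 212 and 236 to 438, 364 and 365 (log2 fold change 0.79 ± 0.11 SE, adjusted p = 1.11e-07). The 3 olaparib libraries lay above the 3 untreated ones for both genes. KIF20A rose in MDA-MB-468 too (log2 fold change 0.46 ± 0.12 SE, adjusted p = 0.00265), and CENPA did not pass the test there (log2 fold change 0.27 ± 0.11 SE, adjusted p = 0.083).

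CCNB1, the cyclin that activates CDK1 for mitotic entry, stood at 953, 936 and 1012 in untreated and 2103, 2159 and 2068 in olaparib-treated SUM1315 cells (log2 fold change 1.13 ± 0.09 SE, adjusted p = 4.56e-12). In MDA-MB-468 it stood at 1064, 1101 and 1127 and 1691, 1709.9 and 1719 (log2 fold change 0.64 ± 0.06 SE, adjusted p = 5.41e-11). Neither pair of groups overlapped. CDK1 itself went from 623, 507 and 439 to 1079.9, 1182 and 1118 in SUM1315 (log2 fold change 1.12 ± 0.10 SE, adjusted p = 1.65e-10) and from 2211, 2182 and 1956 to 3402, 3226 and 3533 in MDA-MB-468 (log2 fold change 0.68 ± 0.05 SE, adjusted p = 3.08e-14). FOXM1, a transcription factor for many late cell cycle genes, went from 157, 207 and 139.8 to 361, 367 and 325 in SUM1315 (log2 fold change 1.08 ± 0.14 SE, adjusted p = 3.38e-07), while in MDA-MB-468 its groups overlapped, at 562, 511 and 570.5 and 687, 782 and 549. There it passed the test by little (log2 fold change 0.28 ± 0.09 SE, adjusted p = 0.0212), and the call was lost under 4 of 14 alternatives, with an adjusted p of up to 0.265, among them leaving out untreated replicate 2 or olaparib replicate 1 or 2. MKI67, the proliferation antigen Ki-67, differed less than CCNB1, CDK1 and FOXM1 in SUM1315. It stood at 1074, 965 and 1154 untreated and 1307, 1290.3 and 1703 with olaparib (log2 fold change 0.42 ± 0.13 SE, adjusted p = 0.0107). The third olaparib library was the highest. Without it, or without untreated replicate 2, the call was lost (adjusted p of up to 0.103). In MDA-MB-468 MKI67 did not pass (log2 fold change 0.12 ± 0.06 SE, adjusted p = 0.137). PLK1, the Polo-like kinase of mitotic entry and spindle formation, missed the threshold in SUM1315, at 281, 309 and 359 and 411, 457 and 349 (log2 fold change 0.36 ± 0.16 SE, adjusted p = 0.0805), and was higher in MDA-MB-468, at 297, 339.9 and 372 and 482, 409.8 and 588 (log2 fold change 0.54 ± 0.12 SE, adjusted p = 0.000623).

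**Figure D2:**
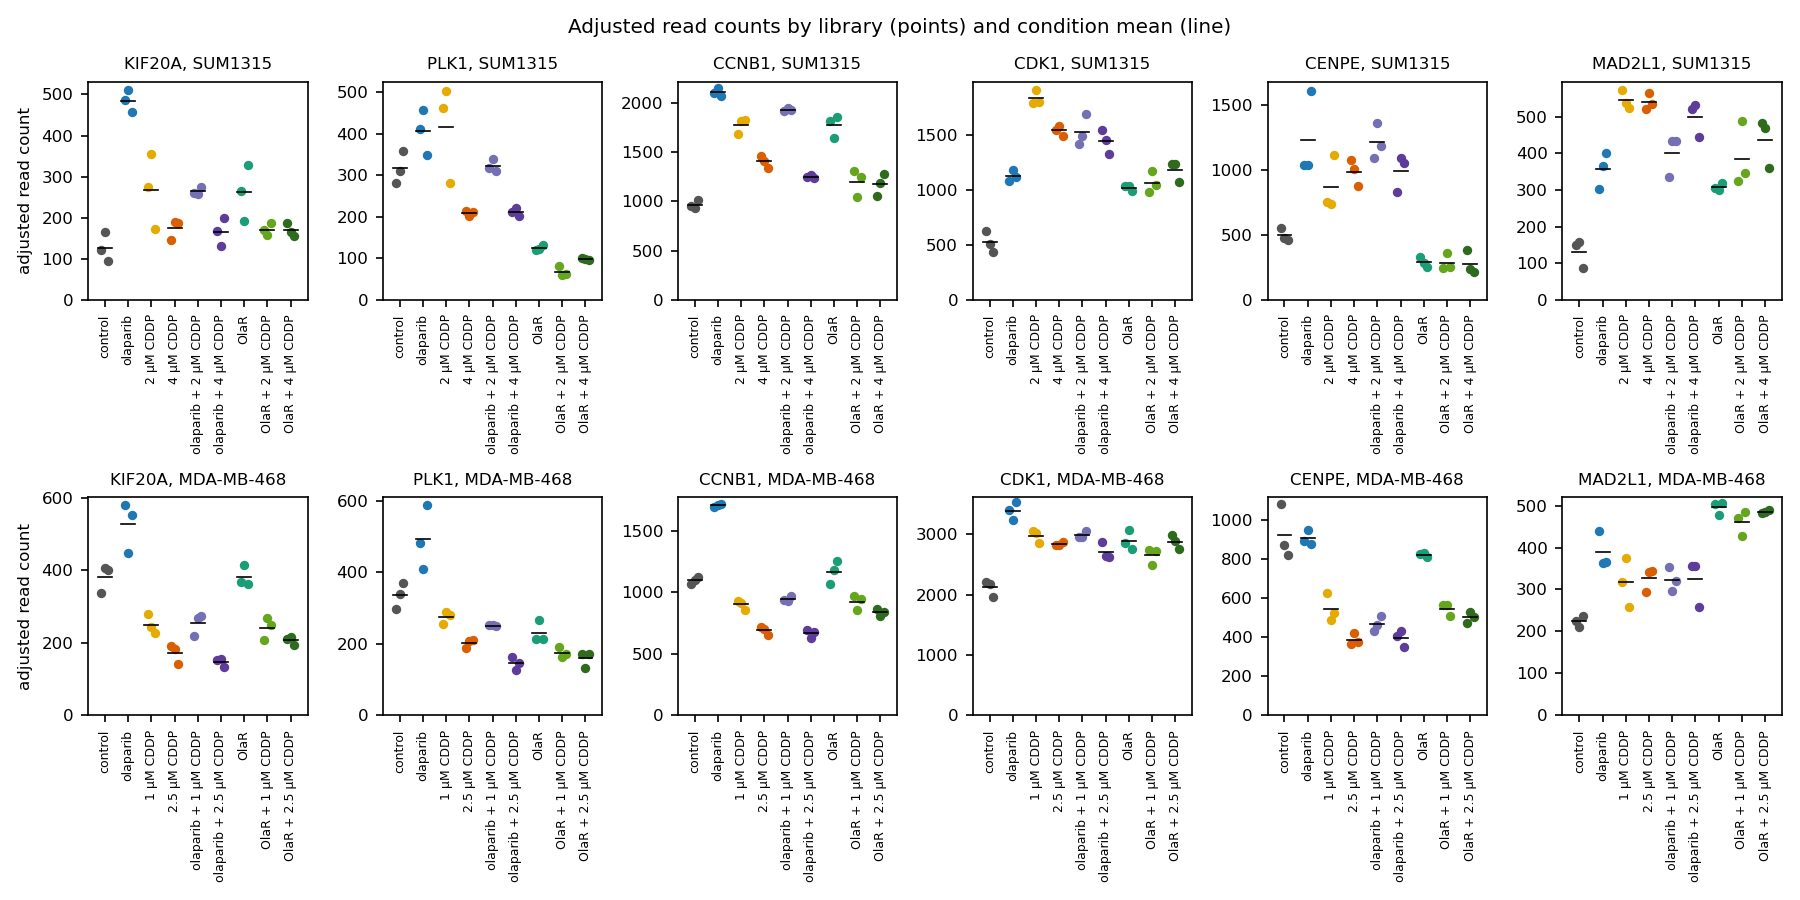
Adjusted read counts (y axis, linear, from 0, one scale per panel) of KIF20A, PLK1, CCNB1, CDK1, CENPE and MAD2L1 in each library, by condition (x axis), for SUM1315 (top) and MDA-MB-468 (bottom). Points are libraries and lines are means of 3. KIF20A is highest with olaparib alone in both lines, and CENPE is low in all 9 SUM1315 OlaR libraries, from 210.6 to 384.5.

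CDDP alone gave different pictures in the 2 lines. With 4 µM CDDP, 44 of the 49 genes were higher in SUM1315 than without treatment and 2 were lower, with a median log2 fold change of 0.94, against 22.2% higher and 21.7% lower of all genes tested. At least 2-fold rises came from 21 members and 7.24% of all genes. The lower dose of 2 µM gave 45 higher and 0 lower (19.4% and 14.5% of all genes), with a median of 0.96. In MDA-MB-468, 2.5 µM CDDP left 4 genes higher and 23 lower, with a median of -0.21, against 13.3% and 11.8% of all genes, and 1 µM left 9 higher and 10 lower, with a median of 0.00, against 10.6% and 9.41%. Both lines had more members lower at the higher dose than at the lower one when the doses were compared directly. In SUM1315, 8 were lower and 0 higher at 4 than at 2 µM (7.07% and 3.4% of all genes), and in MDA-MB-468 21 were lower and 1 higher at 2.5 than at 1 µM (3.34% and 3.62%). The SUM1315 values are read against the same untreated libraries that stood lowest in these genes, and these contrasts share them with the olaparib contrast. Without replicate 3 of the 2 µM libraries, 15 members in place of 8 differed between the SUM1315 doses. edgeR and DESeq2 likewise called 0 lower at 2 µM in SUM1315 and 0 higher at 4 against 2 µM, and at an unadjusted p under 0.05 those counts were 0 and 2.

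The 2 genes that fell in SUM1315 at 4 µM were PLK1 and CDC25B, a phosphatase that activates CDK1. PLK1 fell from 281, 309 and 359 to 213, 203 and 211 (log2 fold change -0.59 ± 0.16 SE, adjusted p = 0.00312). CDC25B fell from 3293, 3429.7 and 3539 to 2830.3, 2487 and 2605 (log2 fold change -0.37 ± 0.08 SE, adjusted p = 0.000389). Neither gene's groups overlapped. MAD2L1 and KIF2C rose most: MAD2L1 from 149.5, 157 and 87.2 to 522, 566 and 534 (log2 fold change 2.08 ± 0.17 SE, adjusted p = 5.67e-12), which is 4.23-fold on the log2(value + 1) scale. KIF2C rose from 303, 355 and 186 to 898, 728 and 857 (log2 fold change 1.60 ± 0.14 SE, adjusted p = 6.31e-11). The spread of KIF2C in the untreated libraries was wide, yet its highest untreated value stayed under the lowest treated one. CDK1 reached 1545, 1585 and 1494 (log2 fold change 1.57 ± 0.10 SE, adjusted p = 3.59e-14), above all 3 olaparib libraries, while CCNB1 reached 1466, 1413 and 1340.2 (log2 fold change 0.54 ± 0.09 SE, adjusted p = 5.31e-06), under all 3 olaparib libraries. KIF20A, the gene with the largest olaparib response, stood at 145, 190.4 and 187 with 4 µM CDDP, and its groups overlapped (log2 fold change 0.48 ± 0.21 SE, adjusted p = 0.0567).

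In MDA-MB-468 the largest falls with 2.5 µM CDDP were those of CENPE, a kinetochore kinesin that aligns chromosomes, and KIF20A. CENPE went from 1079, 868 and 819 to 365, 419.8 and 377 (log2 fold change -1.24 ± 0.09 SE, adjusted p = 4.31e-16). KIF20A went from 337, 405 and 400.3 to 193, 183 and 142 (log2 fold change -1.14 ± 0.12 SE, adjusted p = 6.38e-11). They were the only members that fell by at least 2-fold, as did 0.953% of all genes, and their groups did not overlap. AURKB, the kinase of the chromosomal passenger complex, rose from 786, 985 and 855 to 1375, 1369.8 and 1479 (log2 fold change 0.69 ± 0.08 SE, adjusted p = 7.94e-10), and MAD2L1 from 224, 212 and 236 to 294, 341 and 344 (log2 fold change 0.54 ± 0.11 SE, adjusted p = 0.000121). CDK1 and KIF2C were the other members that rose, by 0.43 ± 0.05 and 0.44 ± 0.06 on the log2 scale. PLK1 fell from 297, 339.9 and 372 to 188, 208 and 211 (log2 fold change -0.73 ± 0.12 SE, adjusted p = 5.88e-06), CCNB1 to 720.2, 703 and 653 (log2 fold change -0.67 ± 0.06 SE, adjusted p = 1.17e-11), and CDC20, the activator of the APC/C, from 711, 694 and 716 to 451, 495 and 537 (log2 fold change -0.52 ± 0.08 SE, adjusted p = 1.64e-06). By role, 4 of the 5 kinetochore and centromere genes, 4 of the 6 spindle assembly genes, 4 of the 9 kinesins and 2 of the 3 mitotic kinases were lower, and 1 of the 6 cyclin, CDK1 and CDC25 genes and 1 of the 4 cytokinesis genes.

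CDDP on top of olaparib was compared with olaparib alone. In MDA-MB-468, 43 of the 49 genes were lower with 2.5 µM CDDP added and 0 were higher, with a median log2 fold change of -0.52, against 13.1% lower and 10.1% higher of all genes tested. Falls of at least 2-fold came from 7 members and 0.638% of all genes. With 1 µM added, 33 were lower and 0 higher (2.97% and 2.3% of all genes), with a median of -0.33. At both doses edgeR and DESeq2 also called 0 higher, and 0 were higher at an unadjusted p under 0.05. In SUM1315, 4 µM CDDP added to olaparib left 8 lower and 2 higher, with a median of -0.09 (4.09% and 4.35% of all genes), and 2 µM left 1 lower and 4 higher (1.67% and 2.09%), with a median of 0.14. These contrasts and the olaparib contrast use the same olaparib libraries, in which 37 members had their highest MDA-MB-468 mean. Against the same CDDP dose without olaparib, few members differed: 7 were higher and 3 lower with olaparib added to 2.5 µM CDDP in MDA-MB-468 (4.63% and 7.29% of all genes), and 0 were higher and 2 lower with olaparib added to 4 µM CDDP in SUM1315 (6.32% and 6.52%). For the last count of 0, edgeR called 0 and DESeq2 1, and 2 were higher at an unadjusted p under 0.05. The small counts rest on few libraries. Without replicate 1 of olaparib with 4 µM CDDP, 6 SUM1315 members in place of 10 differed from olaparib. At 2 µM, 1 in place of 5 did so without olaparib replicate 1, and 3 without replicate 2 of olaparib with 2 µM CDDP. Leaving out any 1 library of either group left 0 or 1 of the 2 members that differed from 4 µM CDDP alone, and without replicate 3 of the 2.5 µM CDDP libraries 6 in place of 10 differed in MDA-MB-468.

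KIF20A and PLK1 had the largest falls in both lines. KIF20A fell from 579.8, 449 and 553 with olaparib to 152, 156 and 132 with 2.5 µM CDDP added in MDA-MB-468 (log2 fold change -1.83 ± 0.12 SE, adjusted p = 6.13e-18). It fell from 486, 511 and 458 to 167, 131 and 199.6 with 4 µM added in SUM1315 (log2 fold change -1.56 ± 0.21 SE, adjusted p = 3.82e-06), and was the only member there with a fall of at least 2-fold, which 0.472% of all genes had. No library of one group reached the other group in either line. PLK1 fell from 482, 409.8 and 588 to 163, 127 and 146 in MDA-MB-468 (log2 fold change -1.75 ± 0.12 SE, adjusted p = 9.28e-17) and from 411, 457 and 349 to 213, 222 and 202 in SUM1315 (log2 fold change -0.92 ± 0.16 SE, adjusted p = 0.000228). CCNB1 fell to 696, 632 and 677 in MDA-MB-468 (log2 fold change -1.35 ± 0.06 SE, adjusted p = 5.98e-23) and to 1252, 1265 and 1243 in SUM1315 (log2 fold change -0.75 ± 0.09 SE, adjusted p = 3.11e-07). CDC20 fell from 1022, 1151 and 963 to 494, 506 and 554 (log2 fold change -1.01 ± 0.08 SE, adjusted p = 1.27e-14) and from 714, 625 and 625 to 419, 452 and 452 (log2 fold change -0.57 ± 0.12 SE, adjusted p = 0.00145). All of these pairs of groups were apart.

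The 8 members lower in SUM1315 were all lower in MDA-MB-468 as well: CCNB1, CDC25B, PLK1, BUB1, CDC20, KIF20A, CENPF and CDCA8. Since 43 of the 49 were lower in MDA-MB-468, most of any members picked would be lower there, and the overlap says little by itself. BUB1 encodes a checkpoint kinase, CENPF a kinetochore protein and CDCA8 the borealin subunit of the chromosomal passenger complex. Their log2 fold changes were -0.48, -0.48 and -0.47 in SUM1315 and -0.95, -0.62 and -0.87 in MDA-MB-468. CDC25B lost its SUM1315 call under 4 of 14 alternatives, with an adjusted p of up to 0.116, all of them fits without 1 of replicates 1 and 2 of either group. CENPF lost it without replicate 1 of olaparib with 4 µM CDDP. NUSAP1, a microtubule-bundling protein, and CDK1 went the other way in the 2 lines. NUSAP1 rose from 1163, 1035 and 1331 to 1467, 1467 and 1551 in SUM1315 (log2 fold change 0.35 ± 0.09 SE, adjusted p = 0.00996) and fell slightly in MDA-MB-468 (log2 fold change -0.19 ± 0.06 SE, adjusted p = 0.0171). CDK1 rose to 1542, 1452 and 1326 in SUM1315 (log2 fold change 0.35 ± 0.10 SE, adjusted p = 0.0256) and fell to 2862, 2632 and 2619 in MDA-MB-468 (log2 fold change -0.32 ± 0.05 SE, adjusted p = 6.49e-06). Of these calls only the fall of CDK1 held under all alternatives. The SUM1315 rise of NUSAP1 was lost without olaparib replicate 2 or replicate 3 of olaparib with CDDP, and its MDA-MB-468 fall without olaparib replicate 1 or 2 or replicate 2 of olaparib with CDDP. The SUM1315 rise of CDK1 was lost without olaparib replicate 1 or 3 or replicate 1 or 2 of olaparib with CDDP. By role, MDA-MB-468 cells had all 6 cyclin, CDK1 and CDC25 genes, all 3 mitotic kinases, all 5 kinetochore and centromere genes, all 3 passenger complex genes, all 6 spindle assembly genes and all 4 cytokinesis genes lower, with 7 of 9 kinesins and 3 of 5 checkpoint genes. The 6 members that did not pass were BUB1B, MAD2L1, UBE2S, KIF11, KIF15 and FOXM1. For FOXM1 the values were 687, 782 and 549 and 659, 589.9 and 465 (log2 fold change -0.24 ± 0.09 SE, adjusted p = 0.0575).

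**Figure D3:**
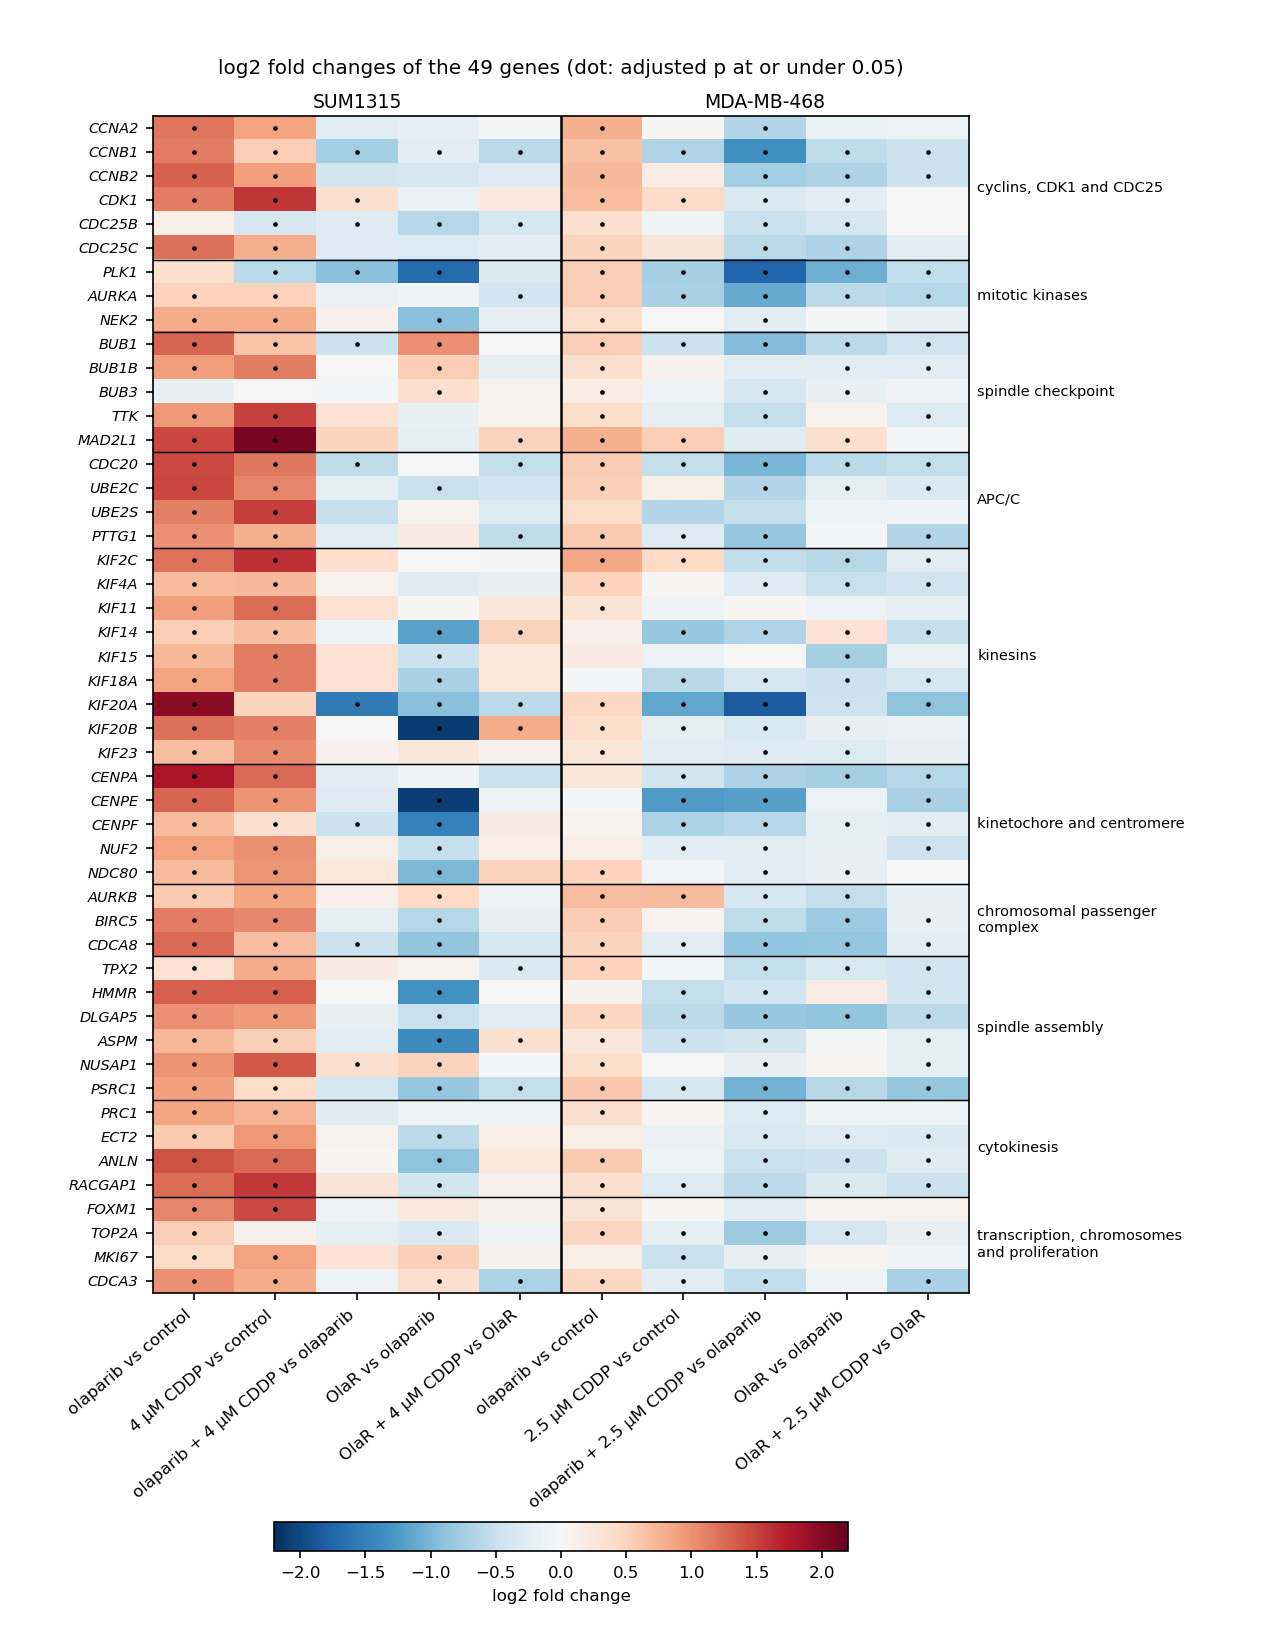
Log2 fold changes of the 49 genes (rows, grouped by role) in the 5 main comparisons of each line (columns), with red for higher and blue for lower in the first-named group and a dot where the adjusted p was at or under 0.05. The olaparib columns are red for 48 genes in SUM1315 (not BUB3) and 47 in MDA-MB-468 (not KIF18A and CENPE), and the column for CDDP added to olaparib is blue for 47 genes in MDA-MB-468 and for 27 in SUM1315.

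OlaR cells were next compared with parental cells under olaparib, the contrast that keeps the drug present on both sides although at different doses. In SUM1315, 24 members were lower and 7 higher in OlaR cells, with a median log2 fold change of -0.31, against 25.7% lower and 21.6% higher of all genes tested. In MDA-MB-468, 32 were lower and 2 higher, with a median of -0.29, against 27.9% and 23.6%. In SUM1315, 7 fell by at least 2-fold (9.06% of all genes), and in MDA-MB-468 1 did (7.12%). Set against untreated parental cells instead, a comparison added after these values were seen, OlaR SUM1315 cells had 33 members higher and 7 lower (26% and 28.7% of all genes), and OlaR MDA-MB-468 cells 19 higher and 7 lower (26% and 27.5%).

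KIF20B, a kinesin that acts late in cytokinesis, fell from 902, 961 and 1325 in olaparib-treated parental SUM1315 cells to 286, 221 and 228 in OlaR cells (log2 fold change -2.10 ± 0.18 SE, adjusted p = 3.50e-11). CENPE fell from 1039, 1038 and 1608 to 329, 283 and 250.2 (log2 fold change -2.07 ± 0.19 SE, adjusted p = 5.67e-11). For both genes the OlaR libraries also lay under the 3 untreated parental libraries, which held 555, 480.1 and 346 for KIF20B and 549, 474 and 461 for CENPE. PLK1 fell to 119, 122 and 132 (log2 fold change -1.69 ± 0.16 SE, adjusted p = 1.80e-10), below its untreated values too. CENPF, ASPM, which encodes a spindle pole protein, HMMR, KIF14 and NDC80, the next in size, had log2 fold changes of -1.48, -1.39, -1.33, -1.17 and -0.99. BUB1 rose from 408, 387 and 379 to 699, 823 and 840.1 (log2 fold change 1.00 ± 0.12 SE, adjusted p = 1.86e-08), and BUB1B, the checkpoint protein BUBR1, from 336, 363 and 369 to 532, 522 and 509 (log2 fold change 0.55 ± 0.11 SE, adjusted p = 7.65e-05). No group pair overlapped in either. By role, 4 of 5 kinetochore and centromere genes and 5 of 9 kinesins were lower in OlaR SUM1315 cells, and 3 of 5 spindle checkpoint genes were higher. Also lower were 4 of 6 spindle assembly, 3 of 4 cytokinesis, 2 of 3 mitotic kinase and 2 of 3 passenger complex genes. The cyclin, CDK1 and CDC25 genes had 2 of 6 lower and the APC/C regulators 1 of 4. Besides the checkpoint genes, 1 spindle assembly and 1 passenger complex gene were higher.

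In MDA-MB-468 the largest falls were in PLK1 and DLGAP5, a protein that steadies the fibres between kinetochores and poles. PLK1 went from 482, 409.8 and 588 to 213, 268 and 213 (log2 fold change -1.08 ± 0.12 SE, adjusted p = 8.47e-11), and DLGAP5 from 881, 866 and 911 to 493, 467 and 492 (log2 fold change -0.87 ± 0.08 SE, adjusted p = 2.76e-13). The 2 members that rose were MAD2L1, from 438, 364 and 365 to 504, 476 and 505 (log2 fold change 0.35 ± 0.11 SE, adjusted p = 0.00525), and KIF14, a kinesin of the midbody, from 484, 431 and 500.4 to 608, 507 and 647 (log2 fold change 0.31 ± 0.10 SE, adjusted p = 0.00709). Neither pair of groups overlapped, although the rise of KIF14 lost its call without olaparib replicate 2 or OlaR replicate 3. KIF20B and CENPE, which fell most in SUM1315, had log2 fold changes of -0.19 ± 0.06 (adjusted p = 0.0137) and -0.14 ± 0.09 (adjusted p = 0.203) here. The KIF20B call was lost without olaparib replicate 1 or 3 or OlaR replicate 3. The test of the difference between the lines found 12 members with a more positive change in MDA-MB-468 and 15 with a more negative one, against 21.4% and 20.3% of the 14460 genes in the joint fit. ASPM (1.36 ± 0.14, adjusted p = 3.07e-11) and CENPF (1.29 ± 0.14, adjusted p = 2.22e-10) were on the positive side, and BUB1 (-1.57 ± 0.15, adjusted p = 2.71e-12) on the negative side.

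Within OlaR cells, CDDP lowered many of these genes in MDA-MB-468 and fewer in SUM1315. With 2.5 µM CDDP, 32 of the 49 were lower in OlaR MDA-MB-468 cells and 0 higher, with a median log2 fold change of -0.25, against 11.2% lower and 7.43% higher of all genes tested. Of the members 0, and of all genes 1.65%, fell by at least 2-fold. At 1 µM, 19 were lower and 0 higher, against 2.91% and 1.84%. edgeR and DESeq2 called 0 higher at both doses, as did an unadjusted p under 0.05. In OlaR SUM1315 cells, 4 µM CDDP left 9 lower and 4 higher (9.61% and 7.13% of all genes), with a median of -0.07, and 2 µM left 5 lower and 0 higher (0.876% and 0.548%), with a median of -0.16. For that 0, edgeR and DESeq2 also called 0, and 2 were higher at an unadjusted p under 0.05. In OlaR SUM1315 cells 7 in place of 13 differed at 4 µM without replicate 1 of the treated libraries, and 8 without OlaR replicate 1 or 3. The count of 4 higher members fell to 1 without OlaR replicate 3 or replicate 1 of the treated libraries, and to 2 without OlaR replicate 1 or 2.

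KIF20A and PSRC1, a microtubule-associated protein of the spindle, fell most in MDA-MB-468. KIF20A went from 368, 415 and 362 to 209.6, 216 and 195 (log2 fold change -0.88 ± 0.12 SE, adjusted p = 1.09e-07). PSRC1 went from 219.8, 211 and 222 to 134, 121 and 111 (log2 fold change -0.83 ± 0.12 SE, adjusted p = 2.35e-07). The 3 treated libraries lay below the 3 others for both. CDCA3, a trigger of mitotic entry, followed in that line (log2 fold change -0.72 ± 0.09 SE, adjusted p = 2.34e-08) and had the largest fall in SUM1315, from 466, 512 and 476 to 279, 355 and 271 (log2 fold change -0.69 ± 0.13 SE, adjusted p = 0.000272). KIF20A was also lower in SUM1315, at 266, 192 and 329 and 186, 166 and 155 (log2 fold change -0.60 ± 0.21 SE, adjusted p = 0.0418), but the call was lost under 7 of 14 alternatives, with an adjusted p of up to 0.237, among them leaving out OlaR replicate 1 or 3 or any 1 CDDP-treated library. KIF20B rose there, from 286, 221 and 228 to 604, 332 and 394 (log2 fold change 0.82 ± 0.18 SE, adjusted p = 0.0022), toward the level of untreated parental cells. Its highest value came from replicate 1, and without that library the rise was the smallest of all alternatives but kept its call. MAD2L1 rose from 305, 299 and 319 to 484, 470.4 and 359 (log2 fold change 0.49 ± 0.17 SE, adjusted p = 0.0371), a call lost under 6 of 14 alternatives, with an adjusted p of up to 0.154, among them leaving out any 1 OlaR library or CDDP-treated replicate 1 or 2.

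CCNB1 fell in OlaR cells of both lines, from 1816, 1647 and 1861 to 1055, 1185 and 1279.7 in SUM1315 (log2 fold change -0.60 ± 0.09 SE, adjusted p = 7.40e-06) and from 1064, 1182 and 1257 to 861, 809 and 843 in MDA-MB-468 (log2 fold change -0.47 ± 0.06 SE, adjusted p = 1.67e-07). CDC20 did so too, from 654, 649 and 649 to 446, 444 and 461 (log2 fold change -0.53 ± 0.12 SE, adjusted p = 0.00154) and from 636, 734 and 706 to 529, 452 and 467 (log2 fold change -0.52 ± 0.08 SE, adjusted p = 2.44e-06). PLK1 was lower in MDA-MB-468, at 213, 268 and 213 and 172, 133 and 172 (log2 fold change -0.54 ± 0.12 SE, adjusted p = 0.000829), and missed the threshold in SUM1315, at 119, 122 and 132 and 102, 99.2 and 96.0 (log2 fold change -0.32 ± 0.16 SE, adjusted p = 0.171), though those groups did not overlap. CDK1, FOXM1 and MKI67 passed in neither line, with log2 fold changes of 0.21, 0.10 and 0.10 in SUM1315 and -0.01, 0.07 and -0.07 in MDA-MB-468. Of all 49 genes, 8 were lower with the higher CDDP dose in OlaR cells of both lines, 8 on top of olaparib in parental cells of both lines, and 3 in all of these 4 comparisons: CCNB1, CDC20 and KIF20A. At least 1 of the 4 lowered 44 members. The 5 that none lowered were FOXM1, KIF11, KIF15, MAD2L1 and UBE2S. The same shared counts were not taken over all genes, so they describe the members only.

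**Figure D4:**
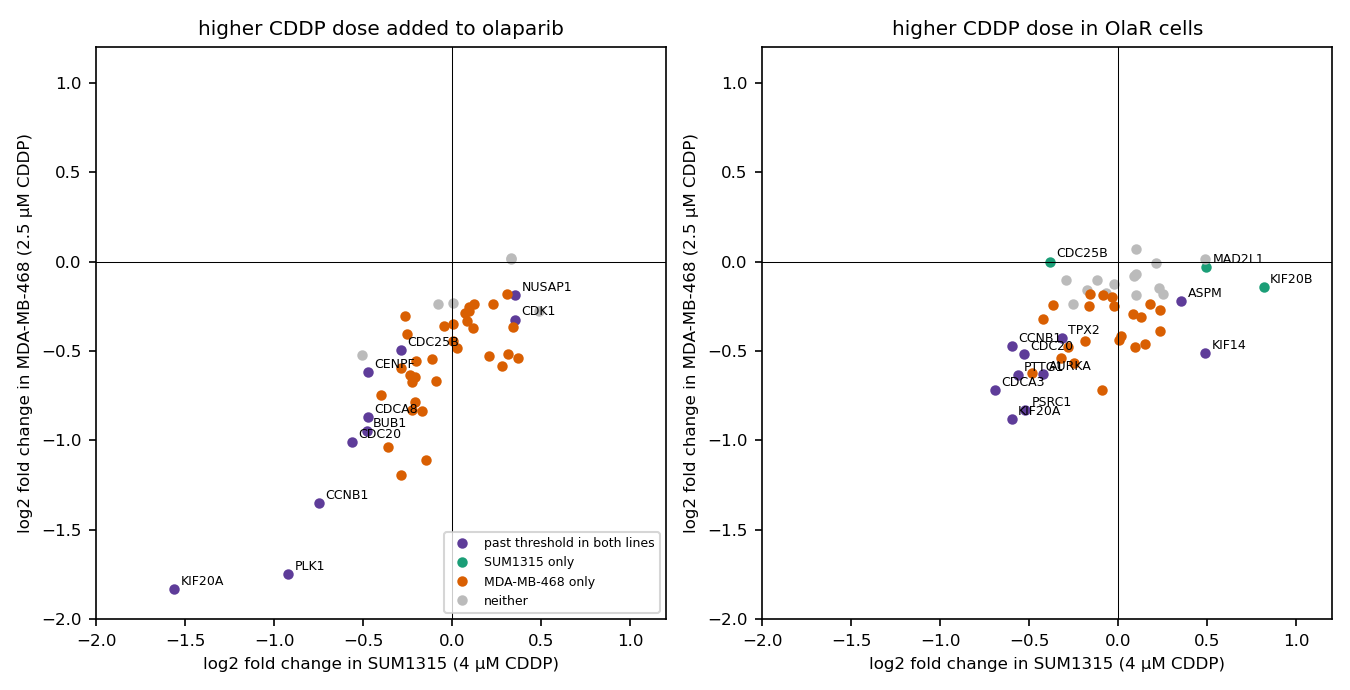
Log2 fold changes with the higher CDDP dose in SUM1315 (x axis, 4 µM) and MDA-MB-468 (y axis, 2.5 µM), on top of olaparib in parental cells (left) and in OlaR cells (right). Each point is 1 of the 49 genes, coloured by the line in which it passed the test and named where it did so in SUM1315. KIF20A and PLK1 lie farthest down and left in the left panel. From left to right panel the MDA-MB-468 values go from a range of -1.83 to 0.02 to one of -0.88 to 0.07, and the SUM1315 values from -1.56 to 0.49 to -0.69 to 0.82.

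The CDDP response was then compared between treatment states of the same line. In SUM1315, the response to 4 µM CDDP was more negative with olaparib present than without it for 45 of the 49 genes, with a median difference of -1.02, against 11.6% more negative and 9.92% more positive of all genes tested. None was more positive by limma, edgeR, DESeq2 or an unadjusted p under 0.05 (counts of 0 each). This difference holds the low untreated SUM1315 libraries as one of its 4 groups. It was largest by p for CDC20 (log2 fold change -1.72 ± 0.16 SE, adjusted p = 3.07e-09), CCNB1 (log2 fold change -1.29 ± 0.12 SE, adjusted p = 3.07e-09) and BIRC5, which encodes survivin (log2 fold change -1.26 ± 0.14 SE, adjusted p = 4.45e-08). In MDA-MB-468, 25 were more negative and 1 more positive (12% and 8.14% of all genes), led by KIF2C (log2 fold change -0.98 ± 0.09 SE, adjusted p = 4.77e-12), CDK1 (log2 fold change -0.75 ± 0.08 SE, adjusted p = 1.09e-10) and AURKB (log2 fold change -1.06 ± 0.11 SE, adjusted p = 1.17e-10). MKI67 was the positive one (0.31 ± 0.08, adjusted p = 0.00529).

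Between OlaR cells and olaparib-treated parental cells, the CDDP response differed for 17 members in MDA-MB-468, all less negative in OlaR cells, against 7.58% more positive and 7.47% more negative of all genes. edgeR, DESeq2 and an unadjusted p under 0.05 gave 0 in the negative direction as well. CCNB1 (log2 fold change 0.88 ± 0.09 SE, adjusted p = 3.57e-10), TOP2A, the topoisomerase that untangles chromosomes (log2 fold change 0.59 ± 0.08 SE, adjusted p = 9.99e-08), and PLK1 (log2 fold change 1.21 ± 0.17 SE, adjusted p = 6.20e-07) led by p. In SUM1315, 3 members were more positive in OlaR cells and 1 more negative, against 1.99% and 4.41%. CENPF (log2 fold change 0.66 ± 0.16 SE, adjusted p = 0.0113) and ASPM (log2 fold change 0.61 ± 0.16 SE, adjusted p = 0.0187) were among the former, with KIF20A (log2 fold change 0.96 ± 0.29 SE, adjusted p = 0.042), and TPX2, which activates Aurora A, was the latter (log2 fold change -0.52 ± 0.13 SE, adjusted p = 0.00955). The KIF20A difference was lost under 12 of 20 alternatives, with an adjusted p of up to 0.138, among them 10 of the 12 fits without 1 library. Without replicate 1 of olaparib with 4 µM CDDP, CENPF and ASPM lost their calls too (adjusted p of up to 0.0507 and 0.0792) and 1 of the 4 members still differed, and ASPM lost its call without olaparib replicate 3. These contrasts share the olaparib libraries, in which the members stood high, with the comparisons above.

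Between the lines, the response to the higher CDDP dose alone was more negative in MDA-MB-468 for 44 members and more positive for 1, with a median difference of -1.15, against 13.7% and 13.9% of genes in the joint fit. NUSAP1 (log2 fold change -1.36 ± 0.10 SE, adjusted p = 6.94e-15), ANLN, the contractile ring scaffold (log2 fold change -1.33 ± 0.11 SE, adjusted p = 2.66e-13), and CCNB1 (log2 fold change -1.21 ± 0.10 SE, adjusted p = 4.37e-13) had the smallest p. The positive one, CDC25B (log2 fold change 0.28 ± 0.10 SE, adjusted p = 0.0306), lost its call in 7 of the 12 fits without 1 library: those without replicate 1 or 3 of the MDA-MB-468 controls or CDDP-treated cells, SUM1315 control replicate 3, or replicate 2 or 3 of CDDP-treated SUM1315 cells. On top of olaparib, 16 were more negative in MDA-MB-468 and 0 more positive (0.996% and 0.871%), led by AURKA, the Aurora A kinase (log2 fold change -0.96 ± 0.11 SE, adjusted p = 2.80e-08), TPX2 (log2 fold change -0.73 ± 0.10 SE, adjusted p = 1.74e-06) and CCNB1 (log2 fold change -0.60 ± 0.10 SE, adjusted p = 0.000126). edgeR, DESeq2 and an unadjusted p under 0.05 also gave 0 on the positive side. In OlaR cells, 7 were more negative and 1 more positive (2.56% and 2.88%), led by KIF14 (log2 fold change -1.0 ± 0.18 SE, adjusted p = 0.000674), ANLN (log2 fold change -0.51 ± 0.11 SE, adjusted p = 0.00352) and KIF20B (log2 fold change -0.96 ± 0.22 SE, adjusted p = 0.0056). Without MDA-MB-468 OlaR replicate 1, or without replicate 1 of the CDDP-treated SUM1315 OlaR libraries, 5 members in place of 8 differed, and without the former none was more positive. The rise with olaparib alone was smaller in MDA-MB-468 for 31 members and larger for 1 (9.99% and 9.89%), with ANLN (-0.81 ± 0.11), HMMR (-1.23 ± 0.18) and CENPA (-1.53 ± 0.23) at the head. The larger one, BUB3 (log2 fold change 0.33 ± 0.11 SE, adjusted p = 0.0276), lost its call without MDA-MB-468 olaparib replicate 2, SUM1315 control replicate 1 or SUM1315 olaparib replicate 1. The doses differed between the lines in each of these comparisons.

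Other cell cycle lists moved with the 49 genes in part. Of a list of 50 further G2/M genes, olaparib alone left 46 higher and 0 lower in SUM1315 and 35 higher and 0 lower in MDA-MB-468. Over all genes tested, 18.9% were higher and 17.1% lower in SUM1315, and 12.4% and 9.11% in MDA-MB-468. CDDP on top of olaparib left 4 lower and 11 higher in SUM1315 (7 higher without olaparib replicate 1 or 2, and 2 lower without olaparib replicate 1 or replicate 2 of olaparib with CDDP) and 25 lower and 7 higher in MDA-MB-468. The shares of all genes there were 4.09% lower and 4.35% higher in SUM1315, and 13.1% and 10.1% in MDA-MB-468. Both counts of 0 were 0 by edgeR, by DESeq2 and at an unadjusted p under 0.05. KPNA2, a nuclear import receptor, had the largest fall of that list in MDA-MB-468 (log2 fold change -1.46 ± 0.07 SE, adjusted p = 5.98e-23). Genes of the G1/S transition were another group. With the higher dose on top of olaparib, 15 of 23 tested were higher and 0 lower in SUM1315 (median log2 fold change 0.58) and 20 of 24 higher and 0 lower in MDA-MB-468 (median 0.65), against 4.35% and 10.1% higher of all genes. In OlaR cells the counts were 11 of 23 and 18 of 24 higher (7.13% and 7.43% of all genes), with 0 lower in both. The SUM1315 count was 6 in place of 11 without OlaR replicate 3. Each count of 0 was also 0 by edgeR, by DESeq2 and at an unadjusted p under 0.05. CCNE2, a cyclin of S phase entry, rose from 43.6, 47.6 and 40.8 to 109, 149.97 and 138 on top of olaparib in MDA-MB-468 (log2 fold change 1.56 ± 0.19 SE, adjusted p = 6.74e-09), and CDC6, a replication licensing factor, from 276, 248 and 246 to 558, 566 and 576 in SUM1315 (log2 fold change 1.14 ± 0.09 SE, adjusted p = 4e-11). Whether the rise of the G1/S genes has a part in the falls of the 49 genes was not tested.

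**Figure D5:**
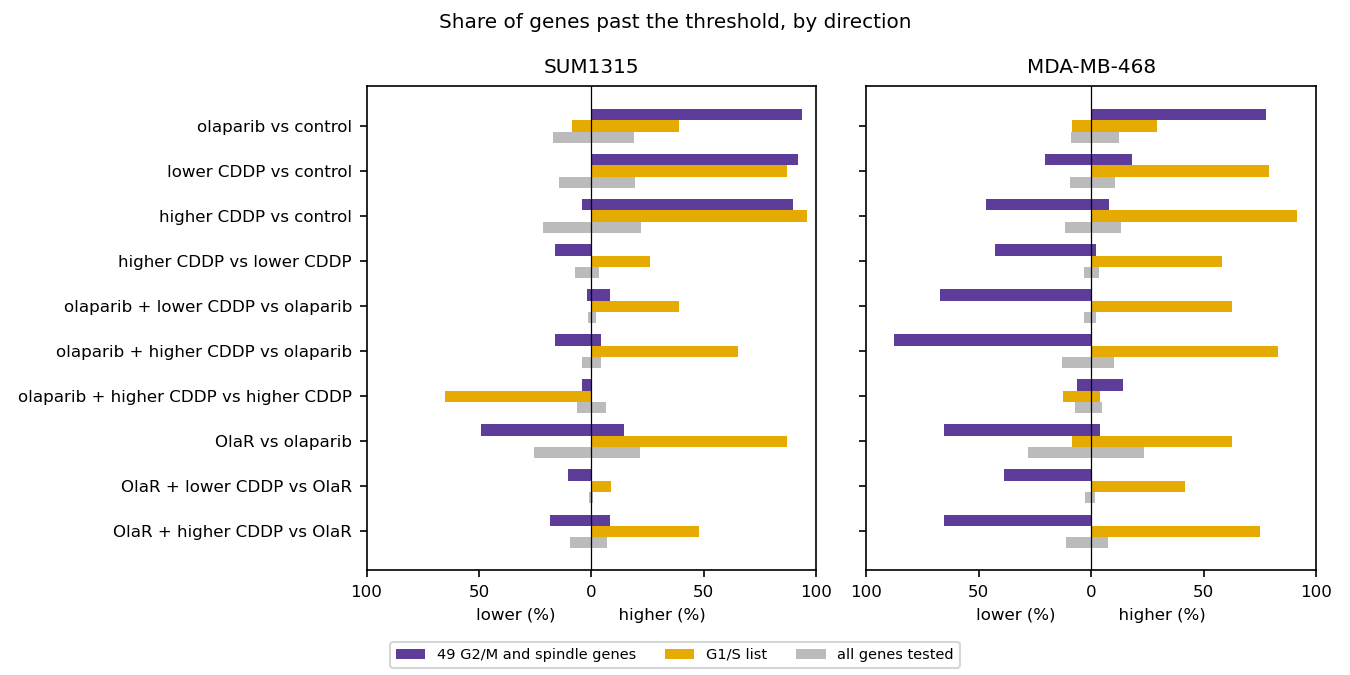
Percent of tested genes that were higher (right of 0) or lower (left of 0) in each comparison (rows), for the 49 genes, the G1/S list and all genes tested, in SUM1315 (left) and MDA-MB-468 (right). In the rows with CDDP added to olaparib and CDDP in OlaR cells, the G1/S bars point right, and the bars of the 49 genes in MDA-MB-468 point left.

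Genes that hold cells in front of mitosis, and others linked to arrest, were read beside them. CDKN1A, which encodes the CDK inhibitor p21, went from 1035, 996 and 1032 to 1392, 1344 and 1429 with 4 µM CDDP on top of olaparib in SUM1315 (log2 fold change 0.44 ± 0.08 SE, adjusted p = 0.00055) and from 74.9, 82.1 and 55.5 to 118, 74.6 and 92.6 in MDA-MB-468, where it did not pass (log2 fold change 0.42 ± 0.21 SE, adjusted p = 0.164). In OlaR cells it rose in both lines, by 0.29 ± 0.08 (adjusted p = 0.0127, lost without OlaR replicate 3 or CDDP-treated replicate 2) in SUM1315 and 1.07 ± 0.21 (adjusted p = 0.000173) in MDA-MB-468. GADD45A, a stress gene whose protein interferes with CDK1 and cyclin B1, rose in all 4 of these comparisons: from 353, 399 and 455 to 708, 840.2 and 841 (log2 fold change 0.99 ± 0.12 SE, adjusted p = 1.20e-06) and from 111, 115 and 115 to 278, 275 and 313 (log2 fold change 1.33 ± 0.11 SE, adjusted p = 3.48e-14) on top of olaparib, and by 0.68 and 1.00 in OlaR cells. WEE1, the kinase that keeps CDK1 inactive, passed with CDDP in none of them (log2 fold changes -0.08, -0.11, -0.27 and 0.03). OlaR cells differed from olaparib-treated parental cells in WEE1 in opposite directions, from 279, 308 and 211 to 403, 366 and 339 in SUM1315 (log2 fold change 0.49 ± 0.15 SE, adjusted p = 0.00684, a call lost without olaparib replicate 3) and from 266, 270.1 and 215 to 115, 120.4 and 135 in MDA-MB-468 (log2 fold change -1.01 ± 0.13 SE, adjusted p = 2.06e-09). GTSE1, a G2 and S phase gene whose protein restrains p53, fell with CDDP on top of olaparib in MDA-MB-468 (log2 fold change -0.31 ± 0.08 SE, adjusted p = 0.00355) and was higher in OlaR than in olaparib-treated MDA-MB-468 cells (log2 fold change 0.50 ± 0.08 SE, adjusted p = 1.37e-06). PKMYT1 stayed under the filter, with at most 10.8 adjusted reads in any library. The list is not made of brakes alone, since it holds genes such as GTSE1. Over the whole list, 4 of 17 were higher and 1 lower on top of olaparib in SUM1315 (4.35% and 4.09% of all genes), and 4 of 18 higher and 6 lower in MDA-MB-468 (10.1% and 13.1%). In OlaR cells 5 and 6 were higher with CDDP, against 7.13% and 7.43% of all genes (3 in place of 5 in SUM1315 without OlaR replicate 3 or CDDP-treated replicate 1 or 2), and 0 lower in either line (0 and 1 at an unadjusted p under 0.05, and 0 by edgeR and DESeq2).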

How the data were processed

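Transcripts of 2 breast cancer lines were measured in 54 QuantSeq 3′ mRNA libraries, 3 in each of 18 conditions. Per the labels, 50-base reads were handled with CASAVA 1.8.2, FastQC, STAR, HTSeq and edgeR on hg38. The deposited table holds a signal: reads per gene, scaled by edgeR to a shared library size of 5585170 before deposit by the authors. Whole reads behind all 1483380 values were recovered within a relative tolerance of 1e-06, which gave the depth of each library.

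The 49 genes, the role groups and the other lists were chosen with earlier results of these data known, so their counts are descriptions. R 4.3.3 and limma 3.58.1 were used, with an intensity trend in eBayes. Each line was fitted over its 27 libraries in 9 conditions, and differences between the lines over all 54. Values entered as log2(adjusted read count + 1), which understates changes of low genes, for genes with at least 10 in at least 3 libraries. The threshold was an adjusted p of 0.05 (Benjamini-Hochberg over all genes tested), and log2 fold changes are given with the standard error of the fit.

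Library values are given for CCNB1, CDK1, PLK1, CDC20, KIF20A, FOXM1 and MKI67, and, in each main comparison, for the 2 largest rises and falls without overlap. Differences of responses name the 3 members with the smallest p. CDKN1A, GADD45A, WEE1, PKMYT1, GTSE1 and up to 2 genes of each other list were added by rule, and any further gene was named after its values were seen. The lists besides the 49 genes held further G2/M genes, G1/S genes, brakes on mitotic entry with other arrest genes, DREAM and MuvB subunits, and APC/C subunits with FZR1.

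Alternatives were pseudocounts of 0.5 and 4, no filter, a replicate block, fits of only the groups compared, a minimum fold of 2, edgeR 4.0.16 (TMM or DESeq2 size factors) and DESeq2 1.42.0 on the recovered reads, and fits without 1 library. On simulated data with 200 changed genes, the limma step recovered 27.9%, 84.4% and 95.6% of changes of 0.5, 1 and 1.5 on the log2 scale for CDDP on top of olaparib in SUM1315 (13133 genes) and 52.1%, 90.2% and 95.6% in MDA-MB-468 (13012 genes). Replicate libraries of a condition differed by more than sampling noise, and no pair was counted as 1 sample. Levels are not compared between genes, since 3′ tags capture genes unequally.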

Additional observations from a re-analysis of the deposited data

Results flagged for a closer look

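The following results were picked because a test of a difference between responses passed the threshold. They are given as values with no explanation.

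Between states of one line, 45 members had a different response to 4 µM CDDP with and without olaparib in SUM1315, with differences of -1.72 for CDC20, -1.29 for CCNB1 and -1.26 for BIRC5 on the log2 scale. In MDA-MB-468, 26 members did so, with -0.982 for KIF2C, -0.751 for CDK1 and -1.06 for AURKB. Between OlaR and olaparib-treated parental cells, 17 members differed in their CDDP response in MDA-MB-468, with 0.878 for CCNB1, 0.595 for TOP2A and 1.21 for PLK1. In SUM1315, 4 members did so, with -0.521 for TPX2, 0.656 for CENPF and 0.609 for ASPM. Of all genes tested, 21.5%, 20.2%, 15% and 6.4% differed in these 4 tests, in the order given.

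Between the lines (MDA-MB-468 minus SUM1315), 45 members differed in the response to the higher CDDP dose alone, with -1.36 for NUSAP1, -1.33 for ANLN and -1.21 for CCNB1. On top of olaparib 16 differed, with -0.959 for AURKA, -0.732 for TPX2 and -0.603 for CCNB1. In OlaR cells 8 differed, with -1 for KIF14, -0.505 for ANLN and -0.96 for KIF20B. For olaparib alone 32 differed, with -0.815 for ANLN, -1.23 for HMMR and -1.53 for CENPA. For OlaR against olaparib-treated parental cells 27 differed, with -1.57 for BUB1, 1.36 for ASPM and 1.29 for CENPF. Of all genes in the joint fit, 27.5%, 1.87%, 5.44%, 19.9% and 41.7% differed in these tests, in the order given. The lines had different doses in each of these, and whether dose has a part in the differences was not tested.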

How the results depend on the processing

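No called log2 fold change of a named gene changed sign under the alternatives run. With both pseudocounts and with the replicate block, all 93 counts of members (31 comparisons, total and by direction) stayed within 1.5 times their value. The labels do not say that a replicate number marks a shared source. Deviations of same-numbered libraries correlated at -0.0977 to 0.163 in SUM1315 and -0.0468 to 0.0426 in MDA-MB-468, and of differently numbered ones at -0.155 to 0.132 and -0.0541 to 0.0424, so the numbers were not used to pair libraries. The block gave between 2 and 46 differing members per comparison, for example 12 in place of 13 for 4 µM CDDP in OlaR SUM1315 cells, where KIF20A was lost. Adding a minimum fold of 2 changed most counts of differing members. In SUM1315 it left 24 for olaparib, 24 for 2 µM and 21 for 4 µM CDDP against no treatment, 1 for 4 µM CDDP on top of olaparib, 8 for OlaR against olaparib and 27 for the CDDP response with against without olaparib. It left 0 for 4 against 2 µM, for 2 µM on top of olaparib, for olaparib with 4 µM against 4 µM alone, for either dose in OlaR cells and for the CDDP response in OlaR against olaparib-treated cells. In MDA-MB-468 it left 2 for 2.5 µM CDDP, 1 and 7 for 1 and 2.5 µM on top of olaparib, 1 for OlaR against olaparib, and 1 and 2 for the CDDP response in OlaR against olaparib-treated cells and with against without olaparib. It left 0 for olaparib, for 1 µM, for 2.5 against 1 µM, for olaparib with 2.5 µM against 2.5 µM alone and for either dose in OlaR cells. Between the lines it left 0 for CDDP on top of olaparib, 1 for CDDP in OlaR cells, 4 for olaparib and 7 for OlaR against olaparib. Of all genes, 0.401% were higher and 0.29% lower there on top of olaparib, and 1.21% and 0.526% in OlaR cells. For olaparib the shares were 3.21% and 3.35%. Shares of all genes under this rule, higher and lower, were 5.41% and 3.38% for 2 µM CDDP in SUM1315. For the CDDP response with against without olaparib they were 4.05% and 4.02% in SUM1315 and 1.06% and 1.01% in MDA-MB-468. In MDA-MB-468 they were 0.146% and 0.0307% for 1 µM CDDP on top of olaparib. For the CDDP response in OlaR against olaparib-treated cells they were 0.553% and 1.57% there. For OlaR against olaparib they were 7.52% and 9.06% in SUM1315, 7.13% and 7.12% in MDA-MB-468, and 11.6% and 9.85% between the lines. Of the 49 members, 1 was higher and 7 lower by this rule in SUM1315 and 0 and 1 in MDA-MB-468. Between the lines 6 were higher and 1 lower. Without the filter, or with DESeq2, 0 and 4 members in place of 2 differed between olaparib with 4 µM CDDP and 4 µM CDDP alone in SUM1315. Fits of only the groups compared gave 9 there, 9 in place of 4 for the SUM1315 CDDP response in OlaR against olaparib-treated cells, and 16 in place of 10 for olaparib with 2.5 µM CDDP against 2.5 µM CDDP alone in MDA-MB-468. The causes of these moves were not tested.

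With each library in turn removed, there were 6 to 15 differing members for 4 against 2 µM CDDP in SUM1315 (8 with all libraries), 1 to 5 for 2 µM (5) and 6 to 11 for 4 µM CDDP (10) on top of olaparib, 0 to 1 for olaparib with 4 µM CDDP against 4 µM alone (2), 7 to 13 for 4 µM CDDP in OlaR cells (13), and 1 to 5 for the CDDP response in OlaR against olaparib-treated cells (4). In MDA-MB-468 there were 6 to 12 for olaparib with 2.5 µM CDDP against 2.5 µM alone (10), and between the lines 5 to 9 for CDDP in OlaR cells (8). The other counts of differing members stayed within 1.5 times their value when any 1 library was left out. The OlaR libraries were the shallowest, from 2070301 reads, and how far depth limited the calls in them was not tested.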

Other observations

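G1/S genes also differed outside the comparisons of CDDP on top of olaparib. With 4 µM CDDP alone, 22 of 23 were higher in SUM1315 (22.2% of all genes), led by CDC45, a part of the replicative helicase (log2 fold change 2.89, adjusted p = 7.05e-15), and RRM2, a subunit of ribonucleotide reductase (2.48, adjusted p = 2.21e-19). With 2.5 µM CDDP, 22 of 24 were higher in MDA-MB-468 (13.3% of all genes), led by RRM2 (1.56, adjusted p = 1.27e-29) and CDT1, a licensing factor (1.17, adjusted p = 1.04e-18). OlaR cells had 20 of 23 higher than olaparib-treated parental cells in SUM1315, among them CCNE1, a cyclin of S phase entry (1.40, adjusted p = 7.23e-06), and 15 of 24 higher and 2 lower in MDA-MB-468, where CDC45 changed most (1.12, adjusted p = 8.65e-11). In that comparison 21.6% of all genes were higher in SUM1315, and 23.6% were higher and 27.9% lower in MDA-MB-468. Olaparib alone left 9 higher and 2 lower in SUM1315 (18.9% and 17.1% of all genes). It left 7 higher and 2 lower in MDA-MB-468 (12.4% and 9.11%).

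Subunits of the DREAM and MuvB complexes, which hold and release the promoters of late cell cycle genes, were also counted. Of 14 tested, 6 were higher and 1 lower with 4 µM CDDP in SUM1315 (22.2% and 21.7% of all genes), and 4 higher and 5 lower in OlaR against olaparib-treated MDA-MB-468 cells (23.6% and 27.9%), shares near those of all genes in the latter. With the higher CDDP dose on top of olaparib 2 were higher in each line (4.35% and 10.1% of all genes). The APC/C list held core subunits and the coactivator FZR1. Of 13 tested, 5 were higher and 1 lower with 4 µM CDDP in SUM1315, where 43.9% of all genes differed in either direction. No more than 2 of the 13 changed in 1 direction in any other main comparison.

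Among the 49 genes the signed log2 fold change went with length in some comparisons. Spearman's rho with RefSeq transcript length was largest in size for 4 µM CDDP in OlaR SUM1315 cells (0.624), 2 µM there (0.547) and olaparib in MDA-MB-468 (-0.527). With the span of the gene it was 0.586, 0.488 and -0.582. The largest rho with span was 0.609, for the CDDP response with against without olaparib in MDA-MB-468. Other comparisons had a small rho with transcript length, such as 4 µM CDDP alone in SUM1315 (-0.0658) and 1 µM alone in MDA-MB-468 (-0.054). A positive rho means that longer genes had the more positive log2 fold change, not the larger one in size. The points are genes measured in the same libraries and are not independent replicates, and the value is a description with no test.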
